A study of Mus musculus with 24 samples.

Results

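CpG methylation was examined at 58 developmental transcription factor genes: members of the Pax, Lhx, Nkx, Fox, Gata, Sox, Tbx, Irx and Dlx families together with Six2, Six3, Six6, Otx1, Otx2, Gbx2, En1, En2, Msx1, Isl1 and Hand2. They were chosen by name from 21755 protein-coding genes of the GENCODE M21 annotation of mm10, as genes of the kind that Polycomb proteins bind, and a CpG belonged to a gene when it lay inside it or within 2000 bases of it. By this rule the 58 genes held 6550 of the 761980 CpGs used, of which 3276 lay in promoters (within 1000 bases of a transcript start), 2733 in gene bodies (inside the gene, outside the promoter) and 541 outside the gene within 2000 bases. The table lists cytosines of each strand separately, and a count of CpGs here is a count of such cytosines: the 6550 lay in 5731 CpG dinucleotides, and each tested promoter and body of these genes held at least 5 dinucleotides. Such genes are usually taken to be silent in granule cells. RNA was not measured in these libraries, so this could not be checked.

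Pax, Lhx, Nkx, Irx, Dlx, Otx, En and Msx proteins carry homeodomains or paired domains, while Fox, Gata, Sox and Tbx proteins bind DNA through other folds, and all of them direct cells toward particular organs or neuron types in the embryo. In cells that do not use them, such genes are often covered by Polycomb complexes, which repress transcription by modifying histones over broad CpG-rich domains. In such domains DNA methylation is typically absent, whereas the bodies of most active genes are methylated.

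Reduced representation bisulfite sequencing (RRBS) reads methylation at cytosines of enzyme-cut fragments rich in CpGs, without telling 5-methylcytosine from 5-hydroxymethylcytosine, and was applied to the micro-dissected dentate gyrus, the hippocampal region that contains the granule cells, of single female C57BL/6JRj mice. Values were analysed for 5 young mice in standard housing (Young STD, 1.5 months old), 7 aged mice in standard housing (Aged STD, 14 months) and 7 aged mice in an enriched environment (Aged ENR, 14 months), a large shared enclosure with tunnels and toys in which they had lived since youth. The samples were bulk tissue holding granule cells, interneurons and glia. A level between none and full can therefore be a change in the share of a cell type or a change inside cells, and these cannot be told apart.

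Short stretches of the genome show what was measured in these genes. In each, capitals mark the CpGs with a value in the table, lower case marks everything else, and the strand is that of the gene. The first set gives 250 bases before a RefSeq transcript start (build GRCm38.p6) of genes whose promoters are described below. Among 32851 such windows in the RefSeq promoter table the median number of CpG dinucleotides, measured or not, was 6, and 42 of the 58 genes had an entry. That median covers entries of 27025 genes, not only promoters tested here. The windows below are single examples, and their counts do not describe the promoters of the 58 genes as a set. Over whole promoters, the median ratio of observed to expected CpGs was 0.616 in the 58 genes and 0.615 in all tested promoters. The lowest ratio among the 58 was that of Lhx4, at 0.137. The Irx2 window (chr13:72628570-72628819, plus strand) held 19, the Gata2 window (chr6:88193641-88193890, plus strand) 22, the Tbx1 window (chr16:18588900-18589149, minus strand) 17, the Lhx4 window (chr1:155742028-155742277, minus strand) 14 and the Pax1 window (chr2:147364744-147364993, plus strand) 10.
Irx2: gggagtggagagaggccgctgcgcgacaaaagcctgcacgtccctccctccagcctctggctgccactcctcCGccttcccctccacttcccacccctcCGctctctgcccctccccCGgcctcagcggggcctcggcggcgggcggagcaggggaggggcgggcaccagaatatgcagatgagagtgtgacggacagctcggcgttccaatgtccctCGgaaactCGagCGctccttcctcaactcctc
Gata2: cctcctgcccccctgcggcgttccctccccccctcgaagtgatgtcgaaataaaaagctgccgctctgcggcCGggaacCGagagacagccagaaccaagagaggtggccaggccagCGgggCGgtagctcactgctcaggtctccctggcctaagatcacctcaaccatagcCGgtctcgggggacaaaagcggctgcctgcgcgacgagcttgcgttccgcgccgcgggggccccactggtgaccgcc
Pax1: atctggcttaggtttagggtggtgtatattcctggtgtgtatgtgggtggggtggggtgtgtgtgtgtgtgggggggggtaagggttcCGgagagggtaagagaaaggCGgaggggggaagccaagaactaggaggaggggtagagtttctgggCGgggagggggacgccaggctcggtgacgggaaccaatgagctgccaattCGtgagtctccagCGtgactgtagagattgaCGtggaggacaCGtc
Lhx4: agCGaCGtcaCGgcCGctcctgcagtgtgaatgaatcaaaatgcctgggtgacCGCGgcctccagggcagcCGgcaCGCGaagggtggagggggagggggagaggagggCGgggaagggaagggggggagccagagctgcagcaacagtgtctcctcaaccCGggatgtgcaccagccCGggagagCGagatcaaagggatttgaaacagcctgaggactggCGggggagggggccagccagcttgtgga
Tbx1: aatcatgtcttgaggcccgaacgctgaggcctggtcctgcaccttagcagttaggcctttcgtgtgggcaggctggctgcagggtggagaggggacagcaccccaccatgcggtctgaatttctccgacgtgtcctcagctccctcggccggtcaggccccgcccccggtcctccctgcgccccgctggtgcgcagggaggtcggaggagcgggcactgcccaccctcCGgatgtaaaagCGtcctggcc

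The mean level of the marked CpGs in Young STD mice was 0% in the Irx2 window, 0.530% in the Lhx4 window, 0.768% in the Pax1 window and 3.81% in the Gata2 window. In the Tbx1 window, where only 2 of the 17 CpGs were measured, it was 39.9%. The marked CpGs cover only part of each window, except in Lhx4, where all 14 dinucleotides of the window were measured, and each window is only part of its promoter.

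The second set gives introns of Pax5 and Pax3 (build GRCm38, 151 bases each, minus strand), chosen as the windows with the most measured cytosines that were all under 10% or all over 50% in Young STD mice. They show the contrast of CpG-dense and CpG-poor stretches within the same gene body.
Pax5, low, chr4:44664470-44664620: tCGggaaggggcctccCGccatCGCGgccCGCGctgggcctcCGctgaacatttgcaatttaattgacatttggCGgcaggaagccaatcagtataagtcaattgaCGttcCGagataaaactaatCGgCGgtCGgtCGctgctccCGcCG
Pax5, high, chr4:44651032-44651182: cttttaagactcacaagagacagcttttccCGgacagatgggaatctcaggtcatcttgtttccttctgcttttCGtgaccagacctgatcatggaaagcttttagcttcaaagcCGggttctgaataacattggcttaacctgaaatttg
Pax3, low, chr1:78189110-78189260: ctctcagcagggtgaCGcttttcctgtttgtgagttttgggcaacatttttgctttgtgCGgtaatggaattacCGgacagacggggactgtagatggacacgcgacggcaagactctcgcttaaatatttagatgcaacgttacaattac
Pax3, high, chr1:78149683-78149833: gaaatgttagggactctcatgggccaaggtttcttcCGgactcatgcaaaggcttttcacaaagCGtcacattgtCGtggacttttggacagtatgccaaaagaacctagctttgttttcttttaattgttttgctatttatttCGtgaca

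The low Pax5 window held 16 CpG dinucleotides, all measured, with a mean of 0.932% in Young STD mice, and the high window held 3 with a mean of 71.1%. In Pax3 the low window held 9, of which 3 were measured, with a mean of 1.72%, and the high window held 4 with a mean of 78.3%. These levels describe the windows, which were picked by them.

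Promoters of the developmental transcription factor genes were almost unmethylated. Of the 58 genes, 56 had a promoter that could be tested (at least 5 CpGs), Pax8 and Dlx5 having no promoter CpG in the table. The median level in Young STD mice was 2.46%, against 1.90% over all 13213 promoters tested, and 54 of 56 (96.4%) lay under 10%, against 80.9% of all promoters. A level here is the mean over the region's CpGs, adjusted for which CpGs a mouse had, so that a value near 0 can come out slightly negative. The medians were 2.88% in Aged STD and 2.86% in Aged ENR mice, where again 54 promoters lay under 10%.

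By family, median promoter levels in Young STD mice ran from 1.61% in the mixed group of Otx, Gbx, En, Msx, Isl and Hand genes and 1.78% in the Irx genes to 3.90% in the Tbx and 6.34% in the Gata genes. The lowest single promoter was that of Nkx6-1, a factor of motor neurons and insulin-producing cells, at 0.342% ± 0.269 (SD, n = 5), followed by En2 at 0.601% and Irx6 at 0.681%. The 5 highest were Tbx1, Tbx4, Gata4, Lhx9 and Gata2.

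Tbx1, a regulator of the pharyngeal arches, had the highest promoter level, 16.1% ± 3.23 (SD, n = 5) in Young STD mice. The 5 mice had 13.7%, 14.7%, 13.8%, 21.4% and 16.7%. Aged STD mice ranged from 5.44% to 20.5% around a median of 17.7%, and Aged ENR mice from 11.3% to 22.0% around 15.1%. All 3 groups overlapped. Of the 72 CpGs of the Tbx1 promoter, 7 were over 50% in Young STD mice and the others had a median of 6.40%.

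Tbx4, a factor of the hindlimb bud, followed at 13.4% ± 4.88, with 14.1%, 6.06%, 13.0%, 19.7% and 14.4% in the 5 Young STD mice. In Aged STD mice it ran from 12.3% to 20% (median 16.1%) and in Aged ENR mice from 8.37% to 30.8% (median 11.6%). Gata4, a heart and endoderm factor, had 8.70% ± 2.64, Lhx9, needed for the gonads, 7.26% ± 3.98 and Gata2, a factor of blood stem cells, 6.93% ± 2.41 (SD, n = 5 each). In Gata4 and Lhx9 the median of the CpGs not over 50% was 0% and 0.238%, and 3 of 37 and 2 of 48 CpGs were over 50%. In Tbx4 1 of 37 was over 50% and the others had a median of 7.75%.

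Gene bodies of the developmental transcription factors were also low, unlike gene bodies in general. Of the 58 genes, 49 had a testable body. Lhx8, Irx2 and Gbx2 had no body CpG, and Lhx3, Sox17, Tbx20, Irx1, Irx6 and Isl1 had fewer than 5. The median in Young STD mice was 6.87%, against 60.7% over all 8035 bodies, and 34 of 49 (69.4%) lay under 10%, against 9.11% of all bodies. It was 5.58% in Aged STD and 5.41% in Aged ENR mice, against 54.2% and 56.8% over all bodies.

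The lowest bodies were those of Foxa2, a pioneer factor of the endoderm, at 0.203% ± 0.210 (SD, n = 5), Sox1, a marker of neural progenitors, at 0.487% ± 0.976 (n = 4), Nkx2-5, a heart factor, at 0.846% ± 0.806, Dlx5, a factor of forebrain interneurons and the jaw, at 1.41% ± 1.49, and En2, of the midbrain and hindbrain, at 2.34% ± 1.20 (n = 5 each). In Nkx2-5 all 42 body CpGs were under 10% and in Foxa2 all 13 were. Low levels were found also in long runs of CpGs, with 132 of 146 under 10% in Lhx5, 139 of 178 in Pax7, which acts in muscle stem cells, and 142 of 189 in Gata3, which acts in T cells.

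The highest bodies were Gata6, Tbx1, Pax5, Pax8 and Pax2. Gata6, an endoderm factor, had 87.2% ± 4.41 (SD, n = 5), with 79.5%, 90.6%, 88.0%, 89.1% and 88.6% in the 5 Young STD mice, but its value rested on 7 CpGs, all of them over 50%. Tbx1 had 48.8% ± 7.72 over 11 CpGs. Pax5, which fixes B cell identity, had 37.8% ± 2.27 over 96 CpGs, Pax8, a thyroid and kidney factor, 37.1% ± 5.62 over 20, and Pax2, of kidney, eye and hindbrain, 28.6% ± 2.14 over 94. Pax3, of neural crest and muscle, came next at 26.9% ± 3.47. The Pax family had a median body level of 26.9%, while the medians of the other families with more than 1 body tested lay between 2.49% (Fox) and 10.6% (Gata).

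**Figure D1:**
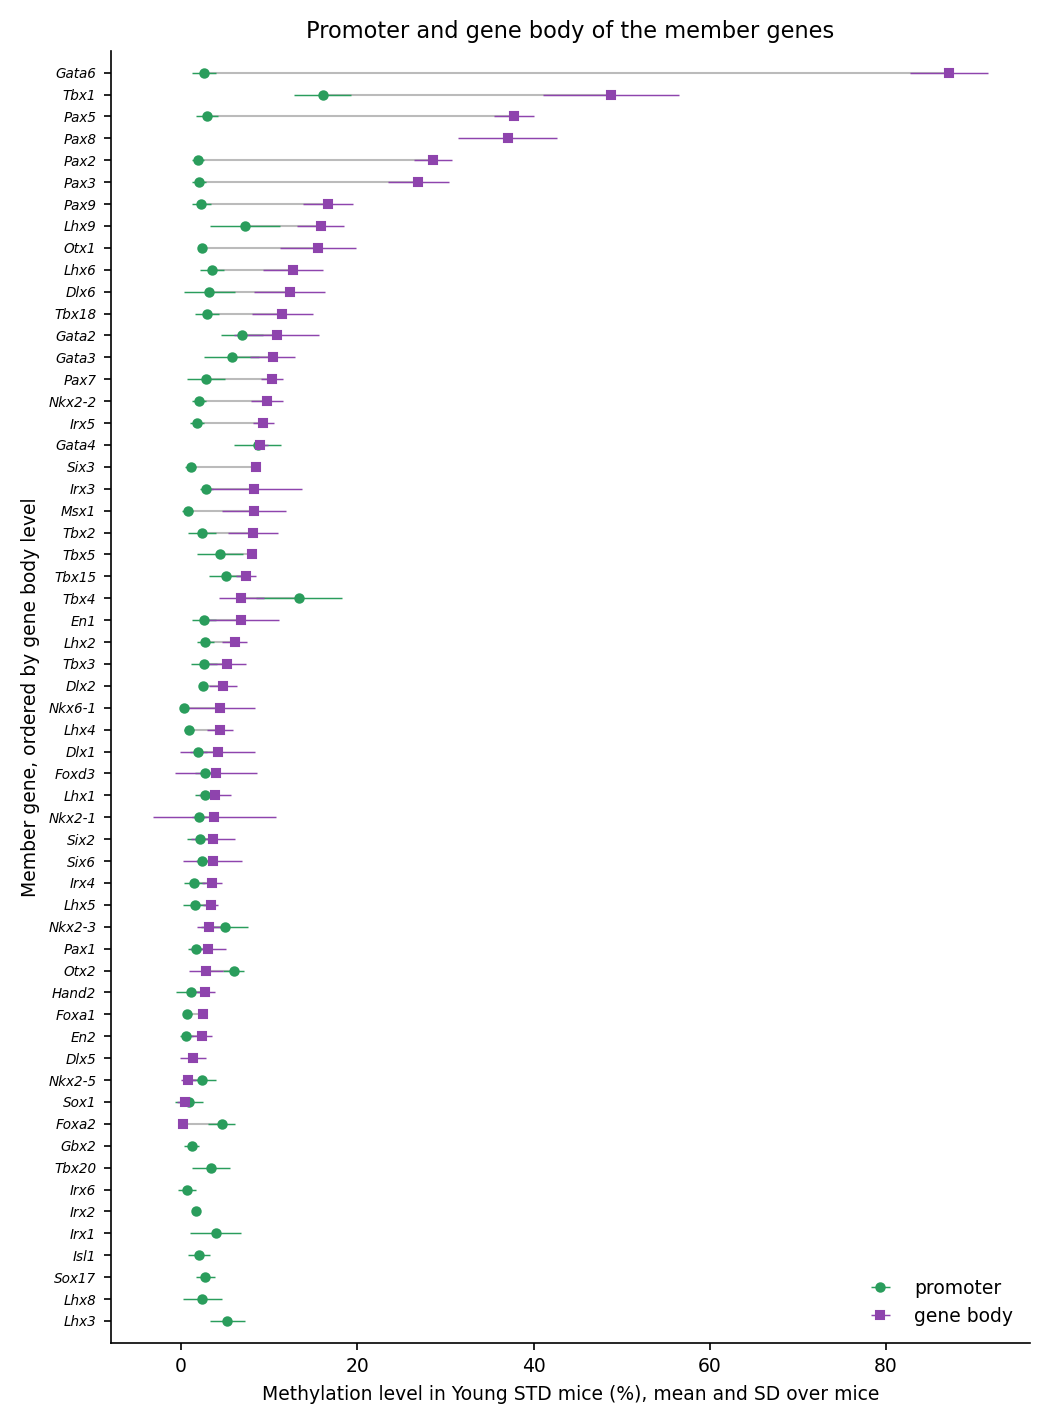
Promoter (circles) and gene body (squares) methylation in percent for each of the 58 genes in Young STD mice, with means and SDs over mice (n = 5 for most) and genes ordered by body level. Most pairs sit together under 10%, while the bodies of Gata6 (87.2%), Tbx1 (48.8%), Pax5 (37.8%), Pax8 (37.1%), Pax2 (28.6%) and Pax3 (26.9%) stand to the right, and genes at the bottom had no testable body.

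The question whether body and promoter differ within a gene was tested with limma on the difference between body and promoter in each of the 19 mice, for the 46 genes with both regions. The median difference was 3.47 points, against 46.0 points over all 6150 genes with both. Body levels were higher in 30 of the 46 genes (adjusted p under 0.05, adjusted over all 6150) and lower in 4, and 12 did not pass. Among all genes 90.3% passed with a higher body and 3.24% with a lower one. The difference was under 10 points in either direction in 39 of 46 genes (84.8%), against 14.4% of all genes.

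The 4 genes with lower bodies were Tbx4, by 8.67 points ± 1.35 (SE, adjusted p = 4.54e-06, limma, body higher in 1 of 19 mice), Nkx2-3, a factor of spleen and gut (-2.49 ± 0.684, adjusted p = 0.00193), Otx2, a head and eye factor (-2.19 ± 0.797, adjusted p = 0.0138), and Foxa2 (-2.14 ± 0.980, adjusted p = 0.0448). The 7 genes with differences over 10 points were Gata6 (81.0 ± 1.68), Tbx1 (32.7 ± 1.83), Pax5 (32.1 ± 0.997), Pax2 (25.3 ± 0.941), Pax3 (22.1 ± 1.20), Pax9, a factor of teeth and palate (16.6 ± 1.16), and Otx1, a forebrain factor (12.3 ± 1.21). In these 7 genes the body was higher in every mouse with both values, 18 mice for Gata6 and 19 for the others.

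The low level extended outward from the start. Means over CpGs in Young STD mice were 1.98% in the first 500 bases after the gene start, 6.75% between 1500 and 2000 bases, 6.19% between 3000 and 4000 and 9.11% between 6000 and 10000. Over all genes the same bins gave 6.12%, 27.9%, 47.9% and 60.8%. Distances here are from the gene start only, so the farther bins can hold CpGs near other transcript starts. The genes also differ between bins, with CpGs of 41 of the 58 genes in the first 500 bases and of 26 between 6000 and 10000. Upstream, between 2000 and 1500 bases before the start, the developmental transcription factor genes had 5.45% and all genes 44.7%. In Aged STD mice the bin from 6000 to 10000 bases gave 8.12% against 55.8%, and in Aged ENR mice 9.28% against 57.6%.

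**Figure D2:**
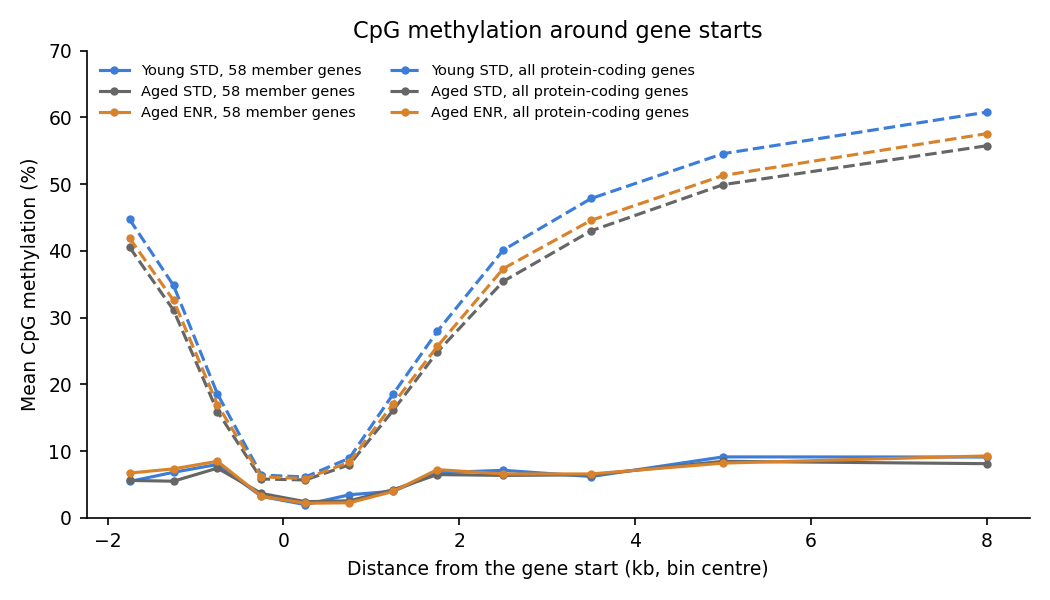
Mean CpG methylation in percent against the distance from the gene start in kb, for the 58 developmental transcription factor genes (solid lines) and all protein-coding genes (dashed lines) in the 3 groups of mice. The solid lines stay under 10% from end to end, while the dashed lines climb to 60.8% in Young STD, 57.6% in Aged ENR and 55.8% in Aged STD mice. The genes with CpGs differ between bins, and far bins can hold CpGs near other transcript starts.

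Farther inside the genes the difference was smaller. Body CpGs more than 20000 bases from any transcript start existed in 8 of the genes (214 CpGs) and had a mean of 40.2% in Young STD mice, against 51.8% over 76553 such CpGs in all genes. Most of the 214 came from Pax2 (78), Pax5 (62), Pax7 (33) and Pax3 (21), so the genes are not those of the nearer bins. Between 10000 and 20000 bases, 137 CpGs of 13 genes had 22.5% against 54.3%, and between 2000 and 5000 bases 1102 CpGs of 39 genes had 5.88% against 43.8%. Within Pax7 the mean was 40.7% over the 33 CpGs beyond 20000 bases and 3.41% over the 145 nearer ones. In Pax3 it was 50.1% over 21 against 7.65% over 27, in Tbx5, a heart and forelimb factor, 32.1% over 15 against 3.34% over 78, in Pax5 45.5% over 62 against 22.8% over 34, and in Pax2 31.4% over 78 against 16.4% over 16. Gata6 stood apart, with 89.2% over 3 far CpGs and 85.7% over 4 nearer ones.

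Across the 49 bodies the level followed gene length, with a Spearman rho of 0.61, against 0.17 across 8042 bodies of all genes. The points are genes of the same libraries, and long genes have more CpGs far from a start. The median length of the 49 genes was 9693 bases, against 45612 bases for all genes with a body level.

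The long Pax bodies held both low and high CpGs. Pax5 had 39 body CpGs under 10%, 22 between and 35 over 50%, Pax3 had 29, 5 and 14, and Pax2 had 46, 24 and 24. The median number of CpG dinucleotides within 100 bases on either side was 11 for the low and 4 for the high CpGs of Pax5, 10 and 5 in Pax3, 8 and 4 in Pax2, 16 and 4 in Pax7 and 9 and 3 in Pax9. Pax8 had the opposite order, with 5 for its 9 low and 7 for its 6 high CpGs, and Pax1 had no CpG over 50%. Low and high CpGs also lay close together in places, as in Pax2, where 1 at 57.2 kb from the gene start had 1.38% and 1 at 56.9 kb had 70.1%. At the far end of Pax2 the CpGs were low again, and the median distance from a start was 75836 bases for its low and 52775 for its high CpGs. The Pax5 and Pax3 windows above, picked for their levels, show such a contrast in density.

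**Figure D3:**
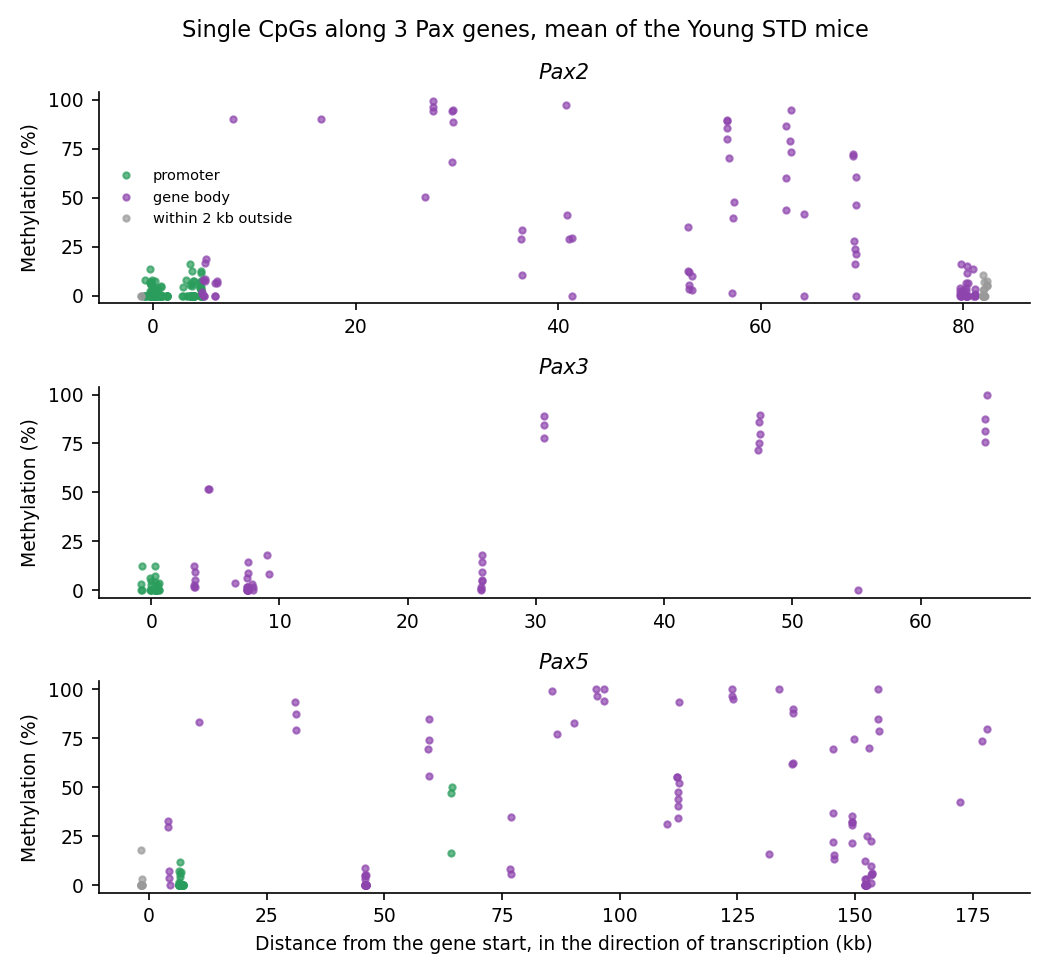
Methylation in percent of single CpGs (mean of the Young STD mice) against the distance from the gene start in kb, along Pax2, Pax3 and Pax5, with promoter, body and outside CpGs in separate colours. CpGs near 0% and CpGs over 50% occur inside the same gene, in places close together, 35 of the 96 body CpGs of Pax5 lying over 50% and 39 under 10%.

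Levels were also set side by side within classes of CpG density, without matching the distance from a start. Body CpGs of the developmental transcription factor genes had a median of 11 CpG dinucleotides within 100 bases on either side, against 5 in all genes. In surroundings with 5 to under 10 of them, the mean in Young STD mice was 12.9% over 943 CpGs, against 54.0% over 70247 CpGs of all genes. With 10 to under 15 the means were 3.65% and 34.8%, and with fewer than 5 they were 40.7% (258 CpGs) and 63.4%. In the densest class, 20 or more, they were 1.62% and 5.67%. The share of CpGs under 10% was 66.9% against 19.9% in the class from 5 to under 10.

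Other gene lists set these levels in context. Other genes of the same families (39 genes, 25 bodies tested) had a median body level of 8.40% in Young STD mice, with 13 bodies under 10%. Transcription factors of granule neurons (18 genes, 17 bodies) had 14.1%, with 8 under 10%. Genes of Polycomb subunits (31 genes, 13 bodies) had 35.9%, with 0 under 10%. The medians of their promoters were 2.59%, 1.74% and 1.71%.

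The comparison of Aged STD with Young STD mice addresses the effect of age in standard housing. At promoters, limma called 0 of the 56 developmental transcription factor genes at an adjusted p under 0.05 (smallest adjusted p 0.682), as it called 0% of all 13213 promoters. At an unadjusted p under 0.05 there were 3 of 56, against 6.12% of all promoters. The median difference was 0.54 points over the 56 promoters, with 34 above and 22 below 0, and -0.06 points over all promoters. It was lower whichever mouse was left out, at 0.14 without Aged STD mouse 4, 0.26 without Aged STD mouse 7, 0.33 without Aged STD mouse 5 and 0.35 without Young STD mouse 3, and 0.07 with only the CpGs measured in all mice. The mean over the 55 promoters with a value in every mouse was 3.27% ± 0.374 (SD, n = 5) in Young STD and 3.59% ± 0.514 (n = 7) in Aged STD mice, with ranges of 2.89% to 3.74% and 2.98% to 4.18% that overlapped.

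The 3 promoters with the largest positive differences were Pax3, Tbx4 and Pax1, and those with the largest negative ones were Gata2, Gata3 and Tbx1. Pax1 (chr2:147361925-147393295), a factor of the vertebral column and thymus, had 0.413%, 1.59%, 2.96%, 2.14% and 1.59% in the 5 Young STD mice. The 7 Aged STD mice ran from 1.38% to 6.26% with a median of 4.85%, and 6 of them lay above every Young STD mouse. The difference was 2.68 points ± 0.904 (SE, unadjusted p = 0.0107, adjusted p = 0.682, limma). It was 2.64 points within library series 27 and 2.72 within series 37, the series being the leading digits of the library numbers in the labels. With only the CpGs measured in all mice the Pax1 difference was 5.69 points.

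Irx2 (chr13:72628820-72634198), an Iroquois homeobox gene of heart and limb patterning, had the only promoter of the 55 with a value in every mouse whose group ranges did not overlap. Among all promoters 0.533% did not overlap in this comparison. It had 0.985%, 1.93%, 2.20%, 1.95% and 1.52% in Young STD and 2.21% to 4.69% (median 3.03%) in Aged STD mice, so that the ranges were separated by less than 0.01 points. The difference was 1.47 points ± 0.610 (unadjusted p = 0.0311, adjusted p = 0.776, limma), with 1.40 and 1.57 points in the 2 series. Irx2 was picked out after its values were seen, as were Lhx4, Nkx2-2, Tbx5 and Irx3 below. The age result at the Nkx2-5 body and the Pax1 promoter result in Aged ENR against Young STD mice were picked in the same way.

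Gata2 (chr6:88193891-88207032) had 5.54%, 6.44%, 5.15%, 6.41% and 11.1% in Young STD mice and 2.91% to 5.23% (median 4.05%) in Aged STD mice, with 1 Aged STD mouse inside the young range. The difference was -2.82 points ± 1.04 (unadjusted p = 0.0175, adjusted p = 0.726, limma). It was -1.70 points in series 27 and -4.52 in series 37, and -1.78 without the highest young mouse, of series 37. Pax3 had 2.05% ± 0.763 (SD, n = 5) in Young STD and 4.92% ± 4.02 (n = 7) in Aged STD mice, where single mice ran from 0.615% to 12.7%, and the difference of 2.87 points was 1.58 without the highest. Gata3 had 5.75% ± 3.10 and 3.22% ± 1.35, a difference of -2.53 points that was -1.58 without Young STD mouse 4. The Tbx4 difference of 2.82 points was 0.97 without Young STD mouse 2, and the Tbx1 difference of -1.48 points was 0.04 without Aged STD mouse 3. The ranges of all of these promoters overlapped between the groups.

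At gene bodies, 0 of the 49 developmental transcription factor genes were called (smallest adjusted p 0.304, limma), against 0.0124% of all 8035 bodies, which is 1 gene. At an unadjusted p under 0.05 there were 4 of 49, against 14.5% of all bodies. The median difference was -0.64 points over the 49 bodies, with 19 above and 30 below 0, and -3.62 points over all bodies. It was -0.16 without Young STD mouse 5, -0.20 without Aged STD mouse 3, -0.28 without Young STD mouse 4 and -1.04 without Aged STD mouse 5, and 0.17 with only the CpGs measured in all mice. Mean body levels were 10.4% ± 0.815 (SD, n = 5) in Young STD and 9.95% ± 1.10 (n = 7) in Aged STD mice over the 43 genes with a value in every mouse, and 48.9% ± 1.72 and 44.4% ± 3.71 over 4930 bodies of all genes. A difference in points has less room where levels are low, and the median body level of these genes was 6.87% against 60.7%.

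The bodies at the low end were Gata6, Pax5 and Msx1, and those at the high end Pax9, En1 and Foxa2. Gata6 had 87.2% ± 4.41 in Young STD and 78.6% ± 6.60 in the 6 Aged STD mice with a value, ranging from 66.4% to 84.1% (difference -8.54 points ± 3.60, unadjusted p = 0.0351, adjusted p = 0.321, limma). Pax5 had 37.8% ± 2.27 and 33.0% ± 4.05, a difference of -4.75 points that was -2.26 after adjustment for the composition of the libraries (described below), -2.42 in mice of similar composition and -1.74 with only the CpGs measured in all mice. Msx1, a factor of teeth, limbs and skull, had 2.04%, 10.6%, 9.03%, 10.9% and 8.65% in Young STD mice and -0.500% to 9.69% (median 3.42%) in Aged STD mice (difference -4.41 points ± 1.86, unadjusted p = 0.0340, adjusted p = 0.317, limma). Its 10 body CpGs gave -1.76 points in series 27 and -8.11 in series 37. With promoters of 500 bases, which leave more CpGs to the body, the difference was -0.01 points for Gata6 and -0.61 points for Msx1.

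Tbx5 (chr5:119832668-119885219) had the only body of the 43 with a value in every mouse whose ranges did not overlap, against 1.36% of all bodies. It had 8.01%, 8.15%, 7.43%, 8.60% and 8.38% in Young STD and 9.09% to 11.9% (median 10.1%) in Aged STD mice. The difference was 2.26 points ± 0.916 (unadjusted p = 0.0280, adjusted p = 0.304, limma), with 2.39 and 2.05 points in the 2 series. Nkx2-5 had 0.286%, 1.09%, 2.10%, 0.70% and 0.0496% in Young STD and 0.850% to 7.56% (median 3.36%) in Aged STD mice (difference 2.49 points ± 1.11, unadjusted p = 0.0425, adjusted p = 0.332, limma). Pax9 had 16.7% ± 2.79 and 21.2% ± 6.84, and En1, of the midbrain and hindbrain, 6.80% ± 4.34 and 9.83% ± 5.91, with overlapping ranges. Without Aged STD mouse 4 the Pax9 difference of 4.47 points was 2.71, and without Aged STD mouse 2 the En1 difference of 3.04 points was 1.27. The En1 difference was larger without Young STD mouse 4 (4.88) and in mice of similar composition (6.96).

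The difference between body and promoter was compared in the same way. For age, 0 of 46 genes were called, against 0% of 6150, with 2 at an unadjusted p under 0.05 against 14.9% of all genes and a median change of -0.58 points against -3.57. For housing, 0 of 46 were called against 0%, with 0 at an unadjusted p under 0.05 against 5.15% and a median of 0.15 against 1.22 points. For Aged ENR against Young STD mice, 0 of 46 were called against 0%, with 1 (Pax1) at an unadjusted p under 0.05 against 10.8% and a median of -0.56 against -2.07 points. The housing median changed sign without single mice (-0.06 without Aged STD mouse 4), and the age median was -0.27 without Aged STD mouse 3, -0.29 without Aged STD mouse 4 and -0.94 without Aged STD mouse 5. The median of Aged ENR against Young STD mice was -0.36 without Young STD mouse 4, -0.93 without Young STD mouse 2 and -0.94 without Young STD mouse 3.

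**Figure D4:**
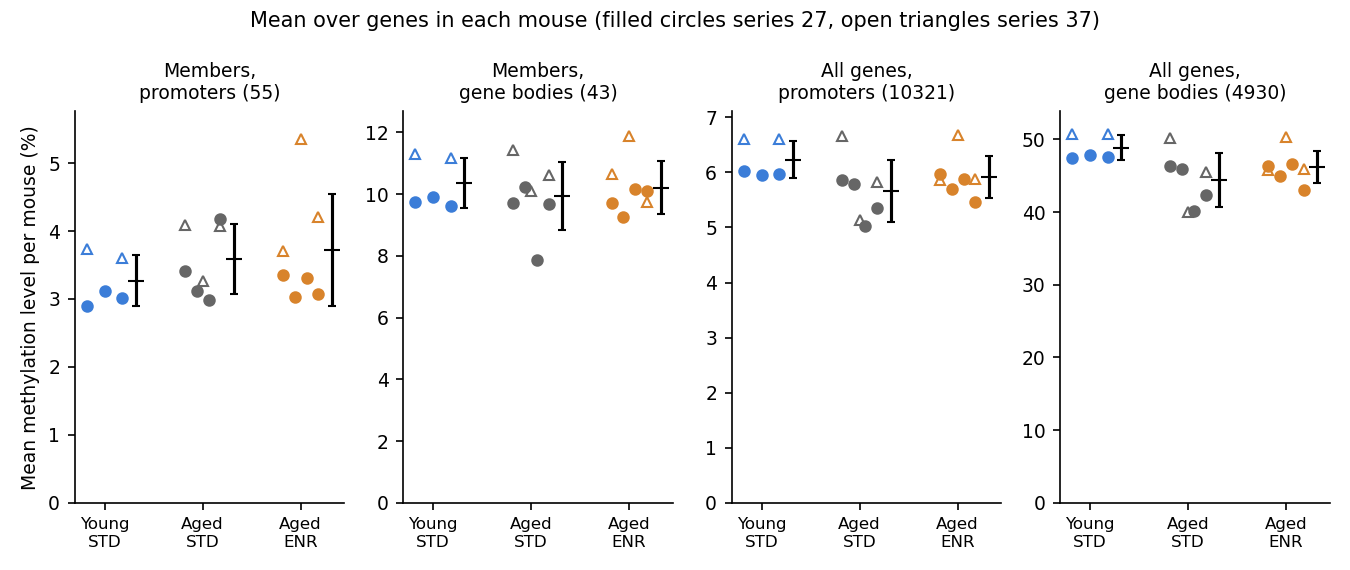
Mean methylation level per mouse in percent over the promoters and gene bodies of the developmental transcription factor genes (left) and of all genes (right) with a value in every mouse, with mean and SD of each group and the library series as symbols. Over all genes the bodies average 44.4% ± 3.71 in Aged STD and 48.9% ± 1.72 in Young STD mice with ranges that overlap only across the library series, whereas those of the developmental transcription factor genes lie at 9.95% ± 1.10 and 10.4% ± 0.815.

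The library series moved with these means. In Young STD mice the mean promoter level of the developmental transcription factor genes was 3.0% in series 27 (3 mice) and 3.67% in series 37 (2 mice), and the mean body level 9.76% and 11.2%. Within series 27, Aged STD mice (4) had 3.42% at promoters and 9.37% at bodies. Within series 37, Aged STD mice (3) had 3.81% and 10.7%. The differences between the age groups thus kept their direction within both series, positive at promoters and negative at bodies. Aged ENR mice had 3.19% at promoters and 9.80% at bodies in series 27 (4 mice) and 4.42% and 10.8% in series 37 (3 mice). Their promoter mean thus lay below that of Aged STD mice in series 27 and above it in series 37, and their body mean above that of Young STD mice in series 27 and below it in series 37. Over all genes every Aged STD mouse had a lower mean body level than every Young STD mouse of its series (40.2% to 46.4% against 47.5% to 47.8% in series 27, and 40.1% to 50.2% against 50.7% to 50.8% in series 37), while over the developmental transcription factor genes the ranges overlapped within both series (7.85% to 10.2% against 9.63% to 9.91%, and 10.1% to 11.4% against 11.2% to 11.3%). The libraries also differed in which CpGs they held, with a composition index (the average that a mouse's measured CpGs have in Young STD mice) of 30.5% to 32.1% in Young STD, 19.5% to 38.0% in Aged STD and 23.3% to 36.2% in Aged ENR mice. With this index in the model the median age difference was 0.41 points at the 56 promoters and 0.25 points at the 49 bodies, the latter of opposite sign. In the mice of similar composition, without 4 Aged STD mice and 2 Aged ENR mice, these medians were 0.20 and -0.10 points, and the part of library composition in the differences was not tested further.

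The comparison of Aged ENR with Aged STD mice addresses the effect of long-term housing, since the aged mice had entered their cages when young and stayed there until tissue was taken, and shares its Aged STD mice with the comparison above. The paper states that enriched mice lived together in an enclosure and standard mice in smaller groups per cage. The labels do not say which mice shared a cage, so an effect of the cage cannot be told apart from one of housing. At promoters 0 of 56 were called (smallest adjusted p 0.952, limma), against 0% of all, with 1 of 56 at an unadjusted p under 0.05 against 4.47%. No promoter of the 55 with a value in every mouse had separate ranges, against 0.0471% of all. The median difference was 0.04 points, with 28 above and 28 below 0, against 0.07 points over all promoters, and ran from -0.22 without Aged ENR mouse 6 to 0.15 without Aged STD mouse 4. At bodies 0 of 49 were called (smallest adjusted p 0.935), against 0%, with 2 of 49 at an unadjusted p under 0.05 against 4.94%, and none of 43 had separate ranges, against 0.0401%. The median was 0.35 points, with 28 above and 21 below 0, against 1.25 points over all bodies. It was 0.01 without Aged ENR mouse 6, 0.03 without Aged ENR mouse 5, 0.13 without Aged STD mouse 3 and 0.19 without Aged ENR mouse 3, and -0.27 in mice of similar composition.

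The single promoter under an unadjusted p of 0.05 was that of Nkx2-2, which acts in the ventral neural tube and in oligodendrocyte precursors. It had 1.30% to 1.50% (median 1.43%) in the 7 Aged STD mice and 1.37% to 4.33% (median 2.88%) in the 7 Aged ENR mice, so that 5 Aged ENR mice lay above every Aged STD mouse. The difference was 1.28 points ± 0.515 (unadjusted p = 0.0247, adjusted p = 0.952, limma), and Young STD mice ran from 1.06% to 2.98%, which spans all Aged STD values. The largest difference, 5.02 points, was at Dlx6, a factor of forebrain interneurons, and came from 1 Aged ENR mouse at 43.9% while the other Aged ENR mice reached at most 8.06%. Without that mouse it was -0.739 points.

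Hand2 (a heart and limb factor), Pax3 and Tbx4 had the most negative promoter differences, -1.77, -1.75 and -1.63 points, and Tbx5 and Tbx1 followed Dlx6 among the positive ones with 2.48 and 2.19 points. Without Aged ENR mouse 6 the Tbx5 difference was 0.75, without Aged STD mouse 3 that of Tbx1 was 0.66, without Aged STD mouse 7 that of Pax3 was -0.46, without Aged STD mouse 4 that of Hand2 was -1.05, and without Aged ENR mouse 2 that of Tbx4 was -0.59. The Tbx4 difference was larger, at -4.33, without Aged ENR mouse 7, and -2.53 with promoters of 500 bases. At bodies, Pax1 had 1.17% to 11.2% (median 4.14%) in Aged STD and 0.138% to 2.59% (median 1.88%) in Aged ENR mice (difference -3.16 points ± 1.30, unadjusted p = 0.0283, adjusted p = 0.935, limma). Irx3, an Iroquois gene near Irx5, had 1.50% to 7.15% (median 3.93%) and 4.88% to 11.7% (median 6.67%) (difference 3.32 points ± 1.28, unadjusted p = 0.0204, adjusted p = 0.935, limma). Gata6 (6.59 points), Lhx9 (5.42) and Tbx1 (3.99) had the largest positive body differences, and En1 (-3.25) and Dlx6 (-2.62) lay with Pax1 at the other end, all of them with overlapping ranges. The Tbx1 body difference was 0.13 without Aged STD mouse 3, that of Gata6 4.12 without Aged ENR mouse 3 and 0.66 with promoters of 500 bases, that of En1 -1.49 without Aged STD mouse 2, that of Pax1 -2.07 without Aged STD mouse 4, and that of Dlx6 0.26 without Aged STD mouse 6. The En1 body difference was larger, at -9.10, in mice of similar composition. With promoters of 500 bases the Lhx9 body difference was 3.07.

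The comparison of Aged ENR with Young STD mice asks whether enriched old mice differ from young ones, and shares mice with both comparisons above. At promoters 0 of 56 were called (smallest adjusted p 0.869, limma), against 0% of all, with 3 of 56 at an unadjusted p under 0.05 against 5.3%. The median difference was 0.45 points, with 37 above and 19 below 0, against -0.02 points over all promoters. It was 0.23 without Aged ENR mouse 6, 0.29 without Young STD mouse 1 and 0.30 without Young STD mouse 3, and 0.07 with only the CpGs measured in all mice. At bodies 0 of 49 were called (smallest adjusted p 0.500), against 0%, with 0 of 49 at an unadjusted p under 0.05 against 10.2%, and a median of -0.29 against -1.90 points. This median changed sign, to 0.14, without Young STD mouse 5, and was -0.01 without Young STD mouse 4 and -0.58 without Aged ENR mouse 3. None of the 45 bodies with a value in every mouse compared had separate ranges, against 0.97% of all.

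Pax1 had the only promoter of 55 with separate ranges in this comparison, against 0.349% of all promoters. The 7 Aged ENR mice ran from 2.96% to 4.98% (median 3.30%), just above the highest Young STD mouse at 2.96%. The difference was 1.93 points ± 0.669 (unadjusted p = 0.0125, adjusted p = 0.869, limma), with 2.25 and 1.49 points in the 2 series. Lhx4, a pituitary and motor neuron factor, had 0.490%, 1.36%, 0.879%, 0.153% and 1.55% in Young STD and 0.866% to 3.88% (median 1.98%) in Aged ENR mice (difference 1.39 points ± 0.608, unadjusted p = 0.0393, adjusted p = 0.869, limma). Gata3 had 3.20%, 2.86%, 4.61%, 9.56% and 8.54% in Young STD and 2.04% to 4.42% (median 2.79%) in Aged ENR mice (difference -2.81 points ± 1.20, unadjusted p = 0.0353, adjusted p = 0.869, limma). That difference was -0.522 points in series 27 and -6.23 in series 37, to which both high young mice belong. It was -0.32 with only the CpGs measured in all mice, -1.28 with promoters of 500 bases and -1.86 without Young STD mouse 4.

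The other extremes of this comparison were the promoters of Dlx6 (6.19 points), Dlx1 (2.47) and Irx6 (1.94) on one side and those of Gata2 (-1.36) and Foxa2 (-0.949) on the other. At bodies they were Pax9 (3.63), Tbx18, an epicardial factor (2.71), and Foxa2 (2.49) against Pax8 (-4.16), Msx1 (-3.96) and Foxd3, a neural crest factor (-3.37). None of them passed an unadjusted p of 0.05. Without Aged ENR mouse 6 the Dlx6 difference was 0.43 and that of Irx6 1.18, without Young STD mouse 5 that of Gata2 was -0.31, and without Young STD mouse 4 that of Foxa2 was -0.34. At bodies, Pax8 had -2.16 without Young STD mouse 1, -2.25 without Aged ENR mouse 3, -7.46 in mice of similar composition and -10.9 as a plain mean over its CpGs. Without single mice, Foxd3 had -1.68 (Young STD mouse 2 left out), Tbx18 1.28 (Young STD mouse 4) and Foxa2 1.36 (Aged ENR mouse 4).

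**Figure D5:**
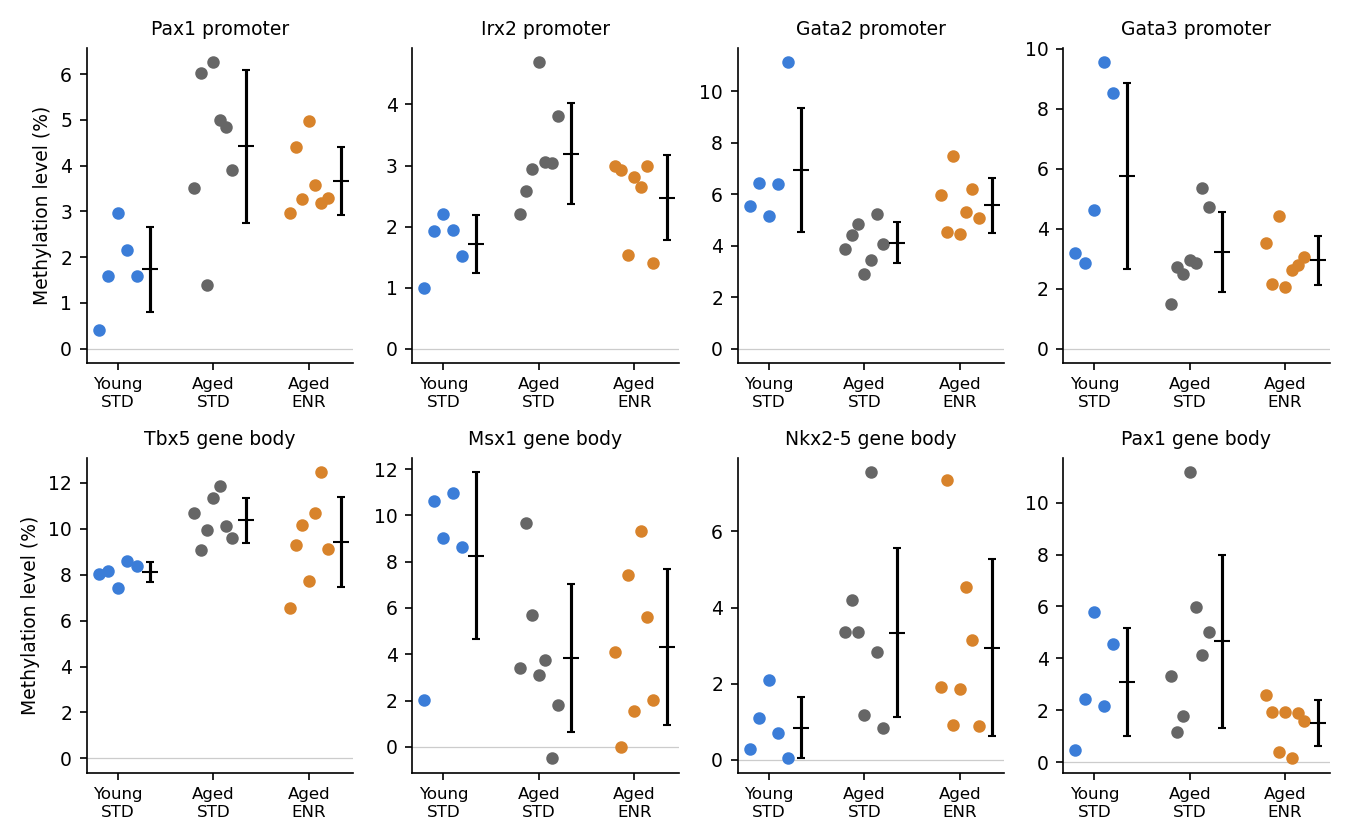
Methylation level in percent in each mouse for 4 promoters and 4 gene bodies, with the mean and SD of each group. Irx2 promoter and Tbx5 body values of Aged STD mice lie above all Young STD mice, Pax1 promoter values of Aged ENR mice lie above all Young STD mice, and none of the 8 passed an adjusted p of 0.05 in any comparison.

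Single CpGs of the developmental transcription factor genes were also tested with limma. A call needed a difference of more than 25 points besides an adjusted p under 0.05. For age (Aged STD against Young STD mice), 0 of 4761 were called (smallest adjusted p 0.750), against 0% of 527423 CpGs. At an unadjusted p under 0.05 there were 126, of which 24 were higher in Aged STD mice, a share of 2.65% against 4.42% of all CpGs. Differences over 25 points occurred at 141 CpGs (2.96%) against 9.37% of all. Such a difference has less room where levels are low. In Young STD mice 77.0% of the body CpGs of these genes lay under 10%, against 25.5% over all genes. None of 1066 CpGs measured in all mice compared had separate ranges, against 0.432%.

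For housing (Aged ENR against Aged STD mice), 0 of 4908 were called (smallest adjusted p 0.769), against 0%, with 99 at an unadjusted p under 0.05 (61 higher in Aged ENR), a share of 2.02% against 2.24%. Differences over 25 points occurred at 125 CpGs (2.55%) against 7.19%, and none of 1164 had separate ranges, against 0.0162%. For Aged ENR against Young STD mice, 0 of 4560 were called (smallest adjusted p 0.776), against 0%, with 115 at an unadjusted p under 0.05 (28 higher in Aged ENR), a share of 2.52% against 3.95%. Differences over 25 points occurred at 129 CpGs (2.83%) against 7.61%, and 2 of 1013 had separate ranges, against 0.323%.

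Those 2 CpGs lie in introns of Foxa1, a pioneer factor of endoderm organs, and Gata3. The sequences with 50 bases on either side follow (build GRCm38, minus strand), with the CpG in question as the capital pair in the middle.
Foxa1, chr12:57543707-57543807: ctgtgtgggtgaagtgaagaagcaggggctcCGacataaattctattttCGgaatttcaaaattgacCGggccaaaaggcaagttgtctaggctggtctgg
Gata3, chr2:9876717-9876817: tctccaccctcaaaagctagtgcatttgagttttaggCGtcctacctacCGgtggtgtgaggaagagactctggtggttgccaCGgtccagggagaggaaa

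At the Foxa1 CpG (chr12, position 57543757, plus strand) the 5 Young STD mice had 0%, 5.77%, 0%, 2.50% and 0% and the 7 Aged ENR mice 7.06% to 29.6%, while 6 Aged STD mice had at most 4.62% and the other 34.3%. The difference between Aged ENR and Young STD mice was 14.0 points ± 4.26 (unadjusted p = 0.00606, adjusted p = 0.776, limma). At the Gata3 CpG (chr2, position 9876767, plus strand) the Young STD mice had 25%, 25.1%, 13.7%, 22.8% and 21.1%, the Aged ENR mice 0% to 12.8%, and the Aged STD mice 8.05% to 23.8%. The difference was -14.5 points ± 4.31 (unadjusted p = 0.00526, adjusted p = 0.776, limma). Over all 6 measured cytosines of the Foxa1 window the means were 3.60% in Young STD and 6.43% in Aged ENR mice, and over the 5 of the Gata3 window 20.4% and 15.2%.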

How the data were processed

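RRBS reads of the dentate gyrus were trimmed with Trim Galore 0.4.0 and cutadapt 1.8.1, mapped to mm10 with Bismark 0.16.1 by the authors, and methylation was called with methylKit 1.5.2 (versions per the labels). The deposited values are the percent of methylated reads per cytosine and mouse, at cytosines with at least 10 reads. Read numbers are not in the table, so no interval or test on reads could be given, and the 19 mice (489671 to 725275 CpGs each, 69025 in all mice) were the replicates. Young mice in enriched housing were not analysed here. No table column was left without a sample.

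Each region with at least 5 CpGs got a level per mouse (at least 3 CpGs in the mouse). From each measured value the mean of its CpG (the mean of the group means) was subtracted. The level was the average of these deviations plus the average of the CpG means over the region. Groups were compared with limma 3.58.1 in R 4.3.3 on the percent scale, with a variance trend, two-sided p-values and adjustment after Benjamini-Hochberg across every region or CpG tested, in place of the chi-squared test that the study used on reads. The main model held no term for the library series. The fit was tested on simulated data. Named genes were those called, the 3 largest differences per direction and comparison, and the extremes in Young STD mice (5 highest promoters, 5 highest and 5 lowest bodies). Genes, lists and rules were chosen with earlier results of these data known. Same-numbered mice did not deviate together (correlations from -0.259 to 0.166), so that replicate numbers were not used as pairs. Figures were drawn with matplotlib 3.10.9.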

Additional observations from a re-analysis of the deposited data

Results flagged for a closer look

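Among 117 groups of 4 to 10 mice examined for the genes named and their means, 18 values stood apart by Dixon's test at the 95% level, where chance gives about 1 group in 20 for groups not chosen by their values. That rate does not apply here, since many of the genes were named for large differences or extreme levels, which single mice help to produce. At promoters they were Foxa2 in Aged STD mouse 4 (10.6%, next 4.28%), Gata2 in Young STD mouse 5 (11.1%, next 6.44%), Gata4 in Aged ENR mouse 3 (14.1%), Tbx4 in Aged ENR mouse 7 (30.8%), Tbx5 in Young STD mouse 4 (8.97%) and Aged ENR mouse 6 (16.4%), Irx6 in Aged STD mouse 6 (4.97%), Dlx6 in Aged ENR mouse 6 (43.9%, next 8.06%) and Hand2 in Young STD mouse 3 (4.17%). At gene bodies they were Pax2 in Aged STD mouse 5 (35.6%), Pax8 in Aged STD mouse 7 (43.8%), Foxd3 in Aged STD mouse 4 (6.37%) and Aged ENR mouse 1 (2.42%), Sox1 in Young STD mouse 1 (1.95%) and Aged ENR mouse 4 (4.98%), Dlx5 in Aged ENR mouse 5 (9.18%), and, on the low side, Gata6 (79.5%) and Msx1 (2.04%), both in Young STD mouse 1. The Foxd3 group of Aged ENR mice and the Sox1 groups held 4 mice with a value. In that Foxd3 group all the other values were 0%.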

How the results depend on the processing

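Counts of 0 called genes in each comparison of groups stayed at 0 under every alternative run, among them a model with a term for the library series. Leaving out each mouse was included (not run for single CpGs). The counts also stayed at 0 with the replicate block (the numbers do not pair the mice), under which the body lay apart from the promoter in 34 genes as before. That number was 33 to 35 without single mice, 32 in mice of similar library composition (added after seeing the data) and 8 with only CpGs measured in all mice, where 15 genes could be tested. With those CpGs the median body minus promoter difference was 2.36 points (2.77 with promoters of 500 bases) and the age change of that difference 0.44 points.

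Directions of single named values reversed at Dlx6 (body in Aged ENR against Aged STD mice 3.11 points in mice of similar composition and 0.26 without Aged STD mouse 6, promoter -0.74 without Aged ENR mouse 6, -1.45 within 500 bases, and against Young STD mice -0.25 with the replicate block and -0.00901 within 500 bases; without single mice the Aged STD comparisons ran from -4.25 to 0.258 and from -0.739 to 6.79), the promoters of Gata2 (Aged ENR against Young STD mice, 1.52) and Gata3 (age, 0.49) with CpGs measured in all mice, the Tbx1 body (housing, -2.56 as a plain mean, -0.60 within 500 bases), the Tbx1 promoter (age, 1.00 with the composition index, -2.48 to 0.0390 without single mice, the last without Aged STD mouse 3), the Tbx18 body (Aged ENR against Young STD mice, -0.16 within 500 bases) and, for housing, the promoters of Tbx4 (0.0223) and Tbx5 (-0.0331) in mice of similar composition. The cause was not tested. Among repeats of 36 named values 811 kept their direction and 15 did not. Over the whole table no CpG had an adjusted p under 0.05, and 127 (age), 19 (housing) and 90 (Aged ENR against Young STD) did without the variance trend. The depth behind each percent is unknown.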
